A study of Mus musculus with 6 samples.

Results

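The nuclear-encoded subunits of the mitochondrial respiratory chain and of the ATP synthase were compared between G1E-ER-GATA-1 cells depleted of SetD8 and their siRNA control. Members were taken by gene name: every probe that was not an array control and whose gene name begins with Ndufa, Ndufb, Ndufc, Ndufs, Ndufv, Uqcr, Cox4 to Cox8 or Atp5, or is Sdha, Sdhb, Sdhc, Sdhd, Cyc1 or Cycs. The rule gave 138 of the 55681 probes, which stand for 92 genes. Of these genes, 84 encode subunits or cytochrome c, and 8 share a prefix without being a subunit and were counted apart. A probe was used where the scanner called it well above background on every array of the SetD8 siRNA group, of the control siRNA group, or of both. This kept 89 of the 92 genes, among 22094 features tested.

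The 3 SetD8 siRNA arrays carried RNA from cells transfected at 0 h and again at 24 h with siRNA against SetD8, and the 3 control siRNA arrays carried RNA from cells given non-targeting siRNA on the same schedule. G1E-ER-GATA-1 cells are mouse erythroid progenitors without an endogenous Gata1 gene, in which GATA-1 is supplied as a fusion to the hormone-binding part of the estrogen receptor. Both groups received β-estradiol for 24 h, which starts red cell maturation in this line, and both were harvested at 48 h. SetD8 (gene Setd8, current symbol Kmt5a) is the enzyme that puts a single methyl group on lysine 20 of histone H4, and the comparison asks which transcripts depend on it during GATA-1-driven maturation. The labels name 1 cell line, describe the SetD8 siRNA by its target only, and do not say whether replicate arrays stem from separate cultures. The p-values therefore measure only the spread among the 6 arrays, and that spread may be technical.

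Complex I takes electrons from NADH and complex II takes them from succinate. Both pass them to ubiquinone, complex III hands them on to cytochrome c, and complex IV gives them to oxygen. The protons pumped by complexes I, III and IV drive complex V, the ATP synthase. Red cell precursors lean on mitochondria for heme and iron-sulfur cluster synthesis and clear them as they mature. Several complex IV subunits exist in a common form and in a form best known from muscle, lung or testis. Subunits encoded in mitochondrial DNA bear other names and are not members.

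Setd8 itself was lower on the SetD8 siRNA arrays. After normexp background correction and quantile normalization between arrays, its probe with the highest mean had log2 signals of 9.58, 9.26 and 9.25 in SetD8 siRNA cells, against 11.50, 11.58 and 11.25 in control siRNA cells. This is 4.23-fold lower (log2 difference -2.08, SE 0.16, limma adjusted p = 0.0162). After scaling each array's processed signal to its 75th percentile, the difference was -2.23 (SE 0.48) with a limma adjusted p of 0.896. The gene's second kept probe gave smaller differences, -1.13 after normexp and quantile normalization and -1.36 after percentile scaling. Both kept probes of the gene gave an exact two-sided permutation p of 0.1, the smallest that 3 arrays against 3 allow.

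The arrays did not match in quality. SetD8 siRNA arrays had 60.3% to 68.6% of spots well above background, and control siRNA arrays had 40.2% to 82.5%, with control 2 lowest and control 3 highest. SetD8 1, SetD8 2 and control 1 shared slide 1, SetD8 3 and control 3 shared slide 3, and control 2 stood alone on its slide and scan day. Of the 10 erythroid markers listed, 9 were measured, and all 9 were well above background on all 6 arrays. Their summed signal, in units of each array's 75th percentile, was 1981 to 2754 on SetD8 siRNA arrays and 1832 to 3716 on control siRNA arrays. Bright genes weigh most in such a sum, and Hba-a1 was the brightest of the 9. The log2 difference was negative for 8 of the 9 after percentile scaling and for 6 after normexp and quantile normalization. After percentile scaling Slc4a1 was lowest at -1.40 (SE 0.47), with no overlap between the groups, and Epb42 had 0.86. The summed signal of 7 megakaryocyte markers was 56.3 to 135 on SetD8 siRNA arrays and 50.5 to 65.8 on control siRNA arrays. For 3 measured lymphoid markers it was 10.4 to 16.5 against 6.29 to 10.2, without overlap. For 5 granulocyte and macrophage markers it was 19.5 to 26.8 against 14.9 to 26.9. For 2 mast cell markers it was 0.732 to 1.02 against 0.412 to 1.22. The part of these lists in the results below was not tested. In bulk RNA of this kind, a change in the share of cells and a change in RNA per cell cannot be told apart.

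No member gene passed the limma test at an adjusted p of 0.05 in either setting. After 75th percentile scaling 0 of 89 members were called, beside 0% of all features. After normexp and quantile normalization 0 of 89 were called, beside 0.471% of all features, of which 0.43% were higher and 0.0407% lower. At an unadjusted p under 0.05 there were 1 member (1.12%) after percentile scaling, beside 2.74% of all features, and 6 members (6.74%) after normexp and quantile normalization, beside 11.8%. Values below are log2 signals and differences after normexp and quantile normalization unless the scaling is named, where the lowest correlation between control siRNA arrays was 0.946, against 0.86 after percentile scaling.

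By complex, the median differences were small. The median difference, SetD8 siRNA minus control siRNA, was 0.04 over the 36 subunits of complex I, -0.02 over the 4 of complex II, -0.05 over the 9 of complex III, 0.09 over the 16 measured subunits of complex IV and 0.03 over the 15 of complex V. The median over all 22094 features was 0.03. A difference is positive for 24 of 36 complex I subunits, 2 of 4 in complex II, 4 of 9 in complex III, 13 of 16 in complex IV and 8 of 15 in complex V. The complex IV values include 4 tissue-restricted isoforms, and its 11 common subunits alone had a median of 0.08, with 8 of 11 positive.

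**Figure D1:**
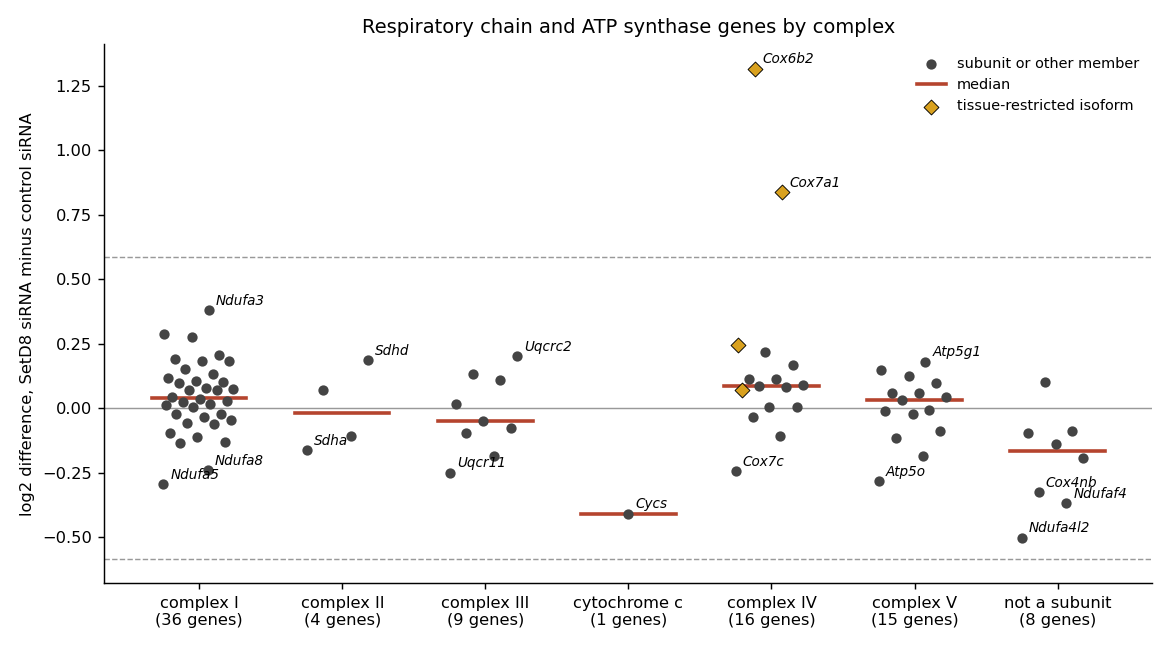
Log2 difference, SetD8 siRNA minus control siRNA, for each measured member gene after normexp and quantile normalization, grouped by complex; bars are medians, diamonds are tissue-restricted complex IV isoforms and dashed lines mark a 1.5-fold difference. Of the 81 subunit genes, 79 lie between the dashed lines, and Cox6b2 at 1.32 and Cox7a1 at 0.84 lie above them.

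The precision of the arrays bounds what a call of 0 can mean. For 70 of the 81 measured subunit genes the 95% interval of the difference lay wholly inside a 1.5-fold change in either direction, which is 0.58 on the log2 scale. These were 32 of 36 in complex I, 4 of 4 in complex II, 8 of 9 in complex III, 13 of 16 in complex IV and 13 of 15 in complex V. The interval of Cycs reached beyond that limit. The median half-width of these intervals was 0.30. After 75th percentile scaling it was 0.97, and the interval of 0 of 81 subunits lay inside the limit, so smaller and larger differences could not be separated in that setting.

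**Figure D2:**
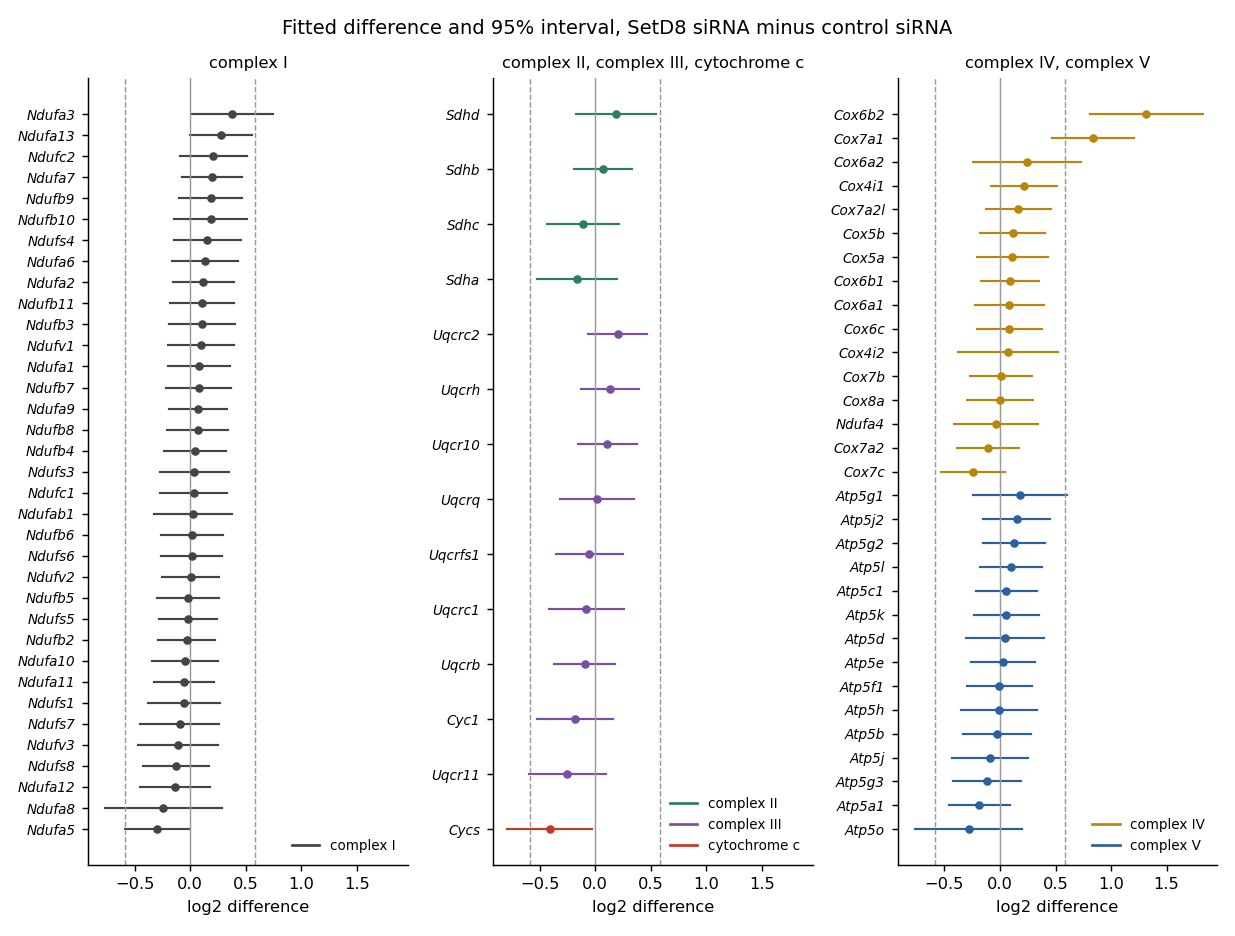
Fitted log2 difference (point) and 95% interval (line), SetD8 siRNA minus control siRNA, for 80 of the 81 measured subunit genes after normexp and quantile normalization; dashed lines mark a 1.5-fold difference. The intervals of 70 genes lie wholly inside the dashed lines, and those of 5 genes exclude zero. Among these 5, Cox6b2 (0.81 to 1.83) and Cox7a1 (0.47 to 1.21) lie to the right of zero and Cycs to the left.

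The complexes moved together from array to array when only a scaling factor was applied. After 75th percentile scaling, the median deviation of complex I subunits from their 6-array mean was -0.13, -0.07 and 0.00 on SetD8 1, 2 and 3, and 0.17, 0.64 and -0.58 on control 1, 2 and 3. Complexes II to V gave the same picture, with control 2 at 0.60 to 0.75 and control 3 between -0.62 and -0.54. Both extremes were control arrays, and the SetD8 siRNA arrays lay between them. The deviation over all features on the same arrays was 0.09 for control 2 and -0.16 for control 3. The pattern was not particular to the complexes. Outside them, Mdh2 had 8.59, 9.03 and 7.76 on control 1, 2 and 3 after percentile scaling, and Epor had 5.93, 6.35 and 5.22. Some dimmer genes went the other way, such as Cox10 with 0.25, -1.34 and 0.70. These genes were picked as examples.

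The medians after percentile scaling differed between the slides. Over all arrays they were -0.17 for complex I, -0.14 for complex II, -0.22 for complex III, -0.10 for complex IV and -0.18 for complex V, beside 0.12 for all features. Within slide 1 they ran from -0.33 to -0.21, and within slide 3 from 0.57 to 0.65. Without control 2 they ran from 0.11 to 0.19, and without control 3 from -0.56 to -0.44. Their direction thus depended on which control siRNA arrays were used. After normexp and quantile normalization the 5 complexes lay between -0.14 and 0.08 on every array.

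**Figure D3:**
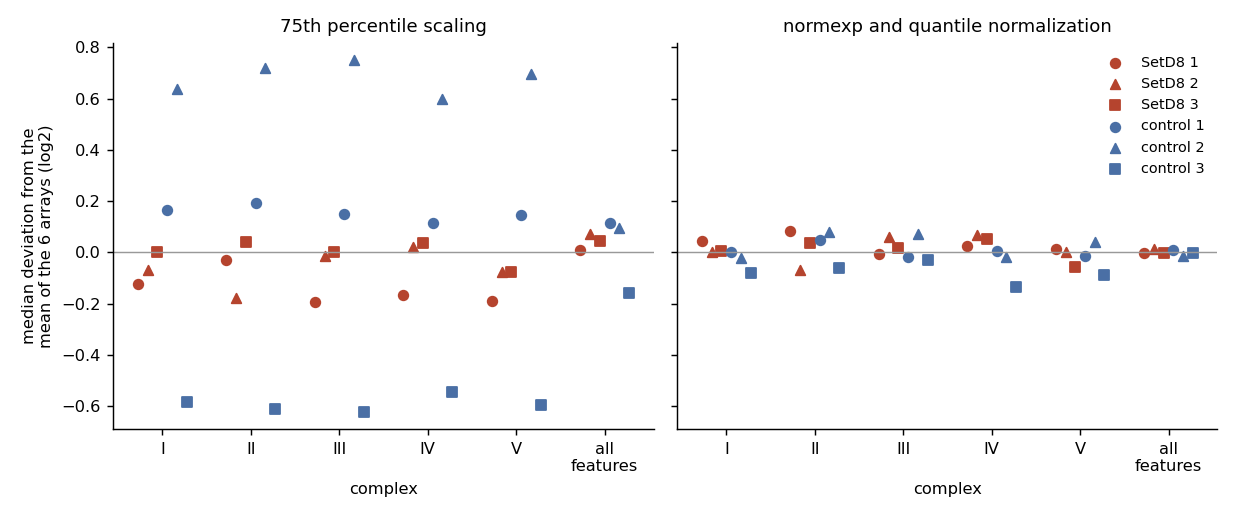
Median deviation of each complex's subunits from their mean over the 6 arrays (log2), by array, with SetD8 siRNA arrays in red left of control siRNA arrays in blue. After 75th percentile scaling (left) control 2 lies at 0.60 to 0.75 and control 3 at -0.62 to -0.54 in every complex; after normexp and quantile normalization (right) all points lie between -0.14 and 0.08.

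In complex I, the 7 core subunits, which carry the flavin and the iron-sulfur clusters, had a median difference of 0.00, and the 29 accessory subunits had one of 0.07. The highest was Ndufa3, an accessory subunit, with 14.99, 15.25 and 14.84 in SetD8 siRNA cells and 14.78, 14.54 and 14.63 in control siRNA cells (difference 0.38, SE 0.15, limma adjusted p = 0.393). Its SetD8 siRNA arrays were all above its control siRNA arrays, but its 3 probes ran from -0.07 to 0.38, the widest disagreement among the 31 member genes with several usable probes.

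At the other end of complex I stood Ndufa5, an accessory subunit, with 13.32, 13.50 and 13.58 in SetD8 siRNA cells against 13.76, 13.74 and 13.78 in control siRNA cells. All of its SetD8 siRNA arrays were lower than all of its control siRNA arrays (difference -0.30, SE 0.12, limma adjusted p = 0.413). Ndufa8 had -0.24 (SE 0.22), with control 2 alone high at 9.82. Ndufab1, the mitochondrial acyl carrier protein, which also serves fatty acid and iron-sulfur cluster synthesis, had 0.02 (95% interval -0.33 to 0.37).

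All 4 subunits of complex II, the enzyme shared with the citric acid cycle, had intervals inside the 1.5-fold limit. The flavoprotein Sdha had a difference of -0.16 (SE 0.15), the iron-sulfur subunit Sdhb 0.07 (SE 0.11), and the membrane anchors Sdhc and Sdhd -0.11 (SE 0.14) and 0.19 (SE 0.15). The arrays of the groups overlapped for each of them.

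In complex III, the core protein Uqcrc2 was highest, with 13.41, 13.38 and 13.44 in SetD8 siRNA cells and 13.24, 13.12 and 13.27 in control siRNA cells (difference 0.20, SE 0.11, limma adjusted p = 0.585). The hinge protein Uqcrh followed at 0.13 (SE 0.11). For both genes the groups did not overlap, yet the fold changes were small, 1.15 for Uqcrc2 and 1.10 for Uqcrh. The small subunit Uqcr11 was lowest at -0.25 (SE 0.15), followed by Cyc1, the cytochrome c1 heme protein, at -0.19 (SE 0.14).

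Cytochrome c, encoded by Cycs, had the lowest difference of all subunit genes. It is the soluble carrier between complexes III and IV and, once released from mitochondria, a trigger of apoptosis. Its signals were 12.87, 12.87 and 12.57 in SetD8 siRNA cells, against 13.26, 13.32 and 12.96 in control siRNA cells. Every SetD8 siRNA array was below every control siRNA array (difference -0.41, SE 0.16, 95% interval -0.79 to -0.03, limma adjusted p = 0.371). The difference was -0.39 within slide 1 and -0.39 within slide 3, and the gene's second usable probe gave -0.22. After percentile scaling it was -0.45 overall and -0.63 within slide 1 but 0.47 within slide 3.

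Complex IV held the highest values, and they belonged to isoforms known from other tissues. The 11 common subunits ran from -0.25 for Cox7c to 0.22 for Cox4i1. Of the 7 tissue-restricted isoforms, 4 were measured, each above background on all 6 arrays, with differences of 1.32 for Cox6b2, 0.84 for Cox7a1, 0.25 for Cox6a2 and 0.07 for Cox4i2. The other 3 were not kept: Cox8b, a muscle isoform, was well above background on 1 SetD8 siRNA array and 1 control siRNA array, and the testis isoforms Cox8c and Cox7b2 on 2 and 2 arrays and on 0 and 0.

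Cox6b2 is the testis isoform of subunit 6b, which faces the space between the mitochondrial membranes where cytochrome c docks. Its probe (chromosome 7, 4703488 to 4703547 in mm9, minus strand) read 9.25, 9.78 and 9.76 in SetD8 siRNA cells and 8.49, 7.97 and 8.38 in control siRNA cells. The lowest SetD8 siRNA array lay above the highest control siRNA array. The difference was 1.32 (SE 0.21, 95% interval 0.81 to 1.83), or 2.49-fold higher, and 0.385% of all features had a higher one. Its limma adjusted p was 0.069, above the threshold, and the unadjusted p was 0.000597.

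The Cox6b2 difference held its direction on both slides, at 1.03 within slide 1 and 1.38 within slide 3. After percentile scaling it was 1.51 (SE 0.36, limma adjusted p = 0.918), again with no overlap between the groups. Cox6b1, the common form of the same subunit, had 12.06, 12.20 and 12.15 in SetD8 siRNA cells and 12.07, 12.02 and 12.05 in control siRNA cells, a difference of 0.09 (95% interval -0.18 to 0.35).

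Cox7a1 is the heart and muscle isoform of subunit 7a, which lies in the membrane at the edge of the complex. Its probe (chromosome 7, 30970337 to 30970948 in mm9, plus strand) read 14.90, 15.04 and 14.79 in SetD8 siRNA cells and 14.13, 13.84 and 14.25 in control siRNA cells. Again the groups did not overlap. The difference was 0.84 (SE 0.15, 95% interval 0.47 to 1.21), or 1.79-fold higher, with 1.74% of all features above it and a limma adjusted p of 0.0903. It was 0.84 within slide 1 and 0.54 within slide 3, and 0.62 (SE 0.36) after percentile scaling.

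For the common form of subunit 7a the groups overlapped. Cox7a2 had 13.01, 13.17 and 13.17 in SetD8 siRNA cells and 13.24, 13.15 and 13.29 in control siRNA cells, a difference of -0.11 (95% interval -0.39 to 0.17). Cox7a2l, a family member that joins complexes III and IV into supercomplexes, had 0.17 (SE 0.12). Cox6a2 and Cox4i2, the muscle and lung isoforms of subunits 6a and 4, overlapped between the groups, as did Cox6a1 (0.08) and Cox8a, the common subunit 8 (0.00). Cox4i1 had 16.30, 16.28 and 16.13 in SetD8 siRNA cells and 16.13, 16.02 and 15.91 in control siRNA cells, so that its lowest SetD8 siRNA array met its highest control siRNA array.

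**Figure D4:**
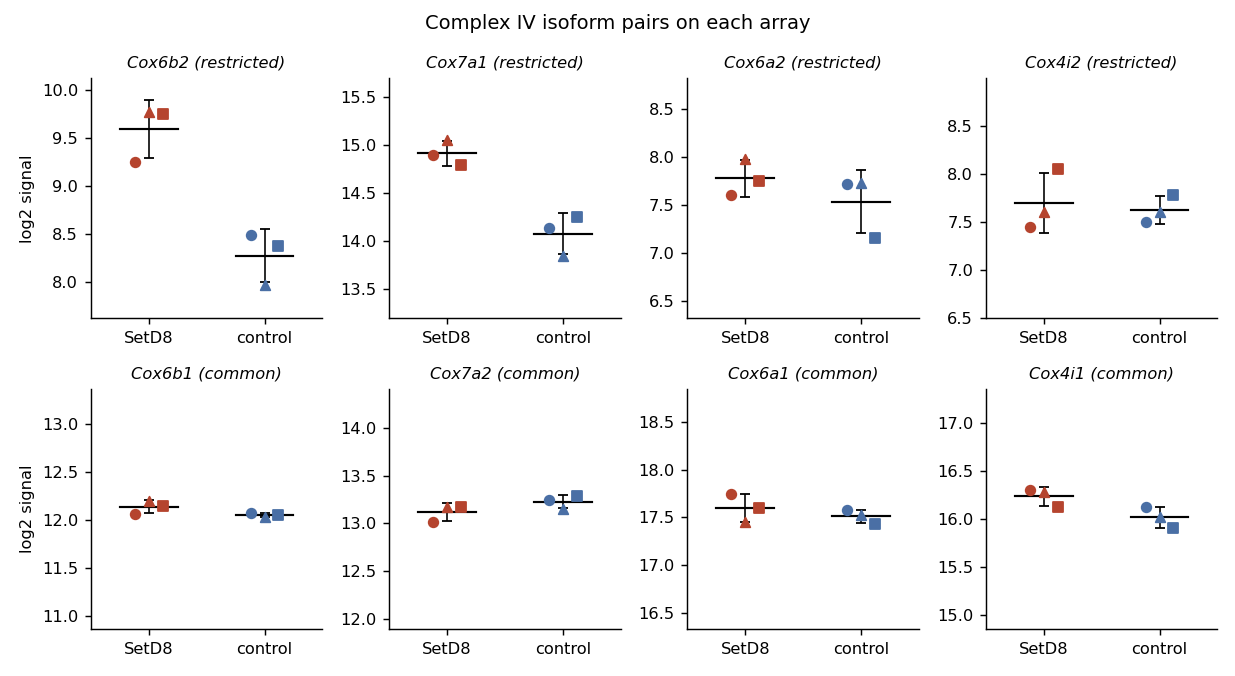
Log2 signal of 4 tissue-restricted complex IV isoforms (top) and their common counterparts (bottom) on each array after normexp and quantile normalization; circles, triangles and squares are replicates 1, 2 and 3, with mean and SD (n = 3), and all panels span the same log2 range around their own centre. Cox6b2 and Cox7a1 are higher on every SetD8 siRNA array than on any control siRNA array, while Cox6b1 and Cox7a2 overlap.

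Within an array, the ratio of 2 isoforms is free of a scaling factor shared by all probes of that array. Differences between arrays that change with signal level can remain in it, so the ratios still depend on the normalization. Centred on its mean over the 6 arrays, the log2 ratio of Cox7a1 over Cox7a2 was 0.46, 0.53 and 0.19 on SetD8 siRNA arrays and -0.41, -0.53 and -0.25 on control siRNA arrays after percentile scaling. The ratio was thus higher on each SetD8 siRNA array, by 0.79 on average, and by 0.95 after normexp and quantile normalization. For Cox6b2 over Cox6b1 it was higher by 1.57 after percentile scaling and by 1.23 after normexp and quantile normalization, with no overlap in either. These pairs were picked for the isoforms' values, so no test is given.

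Cox6a2 over Cox6a1 differed by 0.50 after percentile scaling, where the groups did not overlap, and by 0.16 after normexp and quantile normalization, where they did. Cox4i2 over Cox4i1 had 0.28 and -0.15 in these settings, so its direction depended on the normalization. Cycs over Cyc1 had -0.12 and -0.22, with overlap after percentile scaling.

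The promoters of these isoform pairs and of Cycs are shown because isoforms of the same subunit gave different values above. Each line gives the 250 bases before the gene's start in RefSeq's GRCm38.p6 annotation, 5′ to 3′ on the gene's own strand. Capitals mark matches, on either strand, to 5 short motifs: GCATGCGC, a core of the NRF-1 site, CCGGAAG, bound by ETS factors such as GABP, TGACGTCA, the cyclic AMP response element, GGGCGG, bound by Sp1, and AGATAA, bound by GATA factors.
Cox6b2 (chr7:4753095-4753344, minus strand): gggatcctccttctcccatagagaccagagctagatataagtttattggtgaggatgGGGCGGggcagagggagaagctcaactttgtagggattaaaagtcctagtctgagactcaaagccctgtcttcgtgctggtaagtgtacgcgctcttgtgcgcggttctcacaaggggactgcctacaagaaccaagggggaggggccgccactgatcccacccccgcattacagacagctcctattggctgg
Cox6b1 (chr7:30626115-30626364, minus strand): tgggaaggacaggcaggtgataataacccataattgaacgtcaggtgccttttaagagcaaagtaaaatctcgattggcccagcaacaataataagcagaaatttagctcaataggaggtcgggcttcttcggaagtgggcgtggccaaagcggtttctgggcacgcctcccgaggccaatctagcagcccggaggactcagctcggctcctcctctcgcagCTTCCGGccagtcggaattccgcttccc
Cox7a1 (chr7:30183921-30184170, plus strand): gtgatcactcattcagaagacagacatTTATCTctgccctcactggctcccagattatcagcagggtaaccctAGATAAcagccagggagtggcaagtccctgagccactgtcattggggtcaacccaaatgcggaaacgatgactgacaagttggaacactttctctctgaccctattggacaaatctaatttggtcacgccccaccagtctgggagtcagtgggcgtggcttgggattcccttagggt
Cox7a2 (chr9:79759854-79760103, minus strand): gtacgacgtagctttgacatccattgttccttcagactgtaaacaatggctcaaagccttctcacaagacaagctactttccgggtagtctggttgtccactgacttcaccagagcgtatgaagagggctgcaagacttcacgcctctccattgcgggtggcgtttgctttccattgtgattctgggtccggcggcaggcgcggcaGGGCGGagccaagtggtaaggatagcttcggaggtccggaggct
Cycs (chr6:50566570-50566819, minus strand): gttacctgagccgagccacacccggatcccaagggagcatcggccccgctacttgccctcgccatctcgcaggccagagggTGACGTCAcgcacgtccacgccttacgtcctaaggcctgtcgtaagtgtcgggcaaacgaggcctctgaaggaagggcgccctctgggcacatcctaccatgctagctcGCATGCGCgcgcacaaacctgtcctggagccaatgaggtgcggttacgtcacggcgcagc

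The windows of Cox6b2 and Cox7a2 held the same kind of match, and the other windows differed from these and from each other. Cox7a1 had 2 matches to AGATAA, beginning 223 and 177 bases before the start, and Cox7a2 had none in this window. Only this form of the GATA motif was searched, so runs such as TGATAA in the Cox6b1 window were not counted. Cox6b2 held 1 Sp1 motif, Cox6b1 held 1 ETS motif 28 bases before the start, and Cox7a2 held 1 Sp1 motif. Cycs, known as an NRF-1 target in rat and human cells, held the NRF-1 core 60 bases and a cyclic AMP response element 169 bases before its start.

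RefSeq promoter windows were at hand for 75 of the 92 member genes. Among these, 13.3% held the NRF-1 core in the 250 bases before the start, beside 2.56% of all 27025 genes with a window. The ETS motif was in 17.3% of members beside 7.83% of all genes, the cyclic AMP response element in 6.67% beside 1.77%, the Sp1 motif in 40.0% beside 35.4% and the GATA motif in 8.0% beside 11.4%. A match is a run of letters and not a bound site.

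The expression differences were also summarised with and without a motif. The median was 0.06 for the 10 members with the NRF-1 core, against 0.02 for those without it, and 0.04 for the 13 members with the ETS motif, against 0.02 without it. It was -0.05 for the 5 members with the cyclic AMP response element, against 0.04 without it. For the measured members among the 30 with the Sp1 motif it was 0.00, against 0.06 without it. Cox7b2, with the Sp1 motif, and Cox8b, with none of the motifs, were not measured and do not enter these medians. The 6 members with the GATA motif had a median of 0.03, against 0.03 without it.

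In complex V, the median differences of the catalytic head and of the rest were close to zero. The F1 subunits ran from -0.19 for Atp5a1, the alpha subunit, to 0.06 for Atp5c1, the gamma subunit of the rotating stalk, and the catalytic beta subunit Atp5b had -0.02 (95% interval -0.33 to 0.28). The c ring that turns in the membrane is made from 3 genes for 1 identical mature protein, and these had 0.18 (SE 0.18) for Atp5g1, 0.12 (SE 0.12) for Atp5g2 and -0.12 (SE 0.13) for Atp5g3. Atp5j2, a membrane subunit, had 0.15 (SE 0.12).

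Atp5o, the subunit through which oligomycin sensitivity is conferred, was the lowest of complex V at -0.28 (SE 0.20). Its signals were 10.75, 10.61 and 10.57 in SetD8 siRNA cells and 10.60, 11.32 and 10.86 in control siRNA cells. Control 2 was highest, and the groups overlapped. The difference was 0.08 within slide 1 and -0.29 within slide 3.

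Counted over all complexes, arrays of the groups did not overlap for 20 of 89 members (22.5%), beside 19.3% of all features. Of these, 13 (14.6%) were higher in SetD8 siRNA cells, beside 10.2% of all features, and 7 (7.87%) were lower, beside 9.09%. Among the 13 were Ndufa2, Ndufa3, Ndufa7, Ndufa13, Ndufb9, Uqcr10, Uqcrc2, Uqcrh, Cox6b2, Cox7a1, Cox7a2l and Atp5g2. The 7 were Ndufa5, Cycs, Cox7c, Atp5a1, Ndufaf3, Ndufaf4 and Cox4nb. After percentile scaling 3 members (3.37%), Cox6b2, Cox7a1 and Cox6a2, did not overlap, beside 7.93% of all features. All 3 were higher in SetD8 siRNA cells, beside 5.02% of all features, and 0 were lower, beside 2.91%. The share of members that were higher thus lay above that of all features after normexp and quantile normalization and below it after percentile scaling.

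Of the 8 prefix matches that are not subunits, 7 had a negative difference, with a median of -0.17. The 4 complex I assembly factors were Ndufaf1 at -0.10, Ndufaf2 at -0.19, Ndufaf3 at -0.09 and Ndufaf4 at -0.37. Ndufaf4 had 10.35, 10.44 and 10.17 in SetD8 siRNA cells and 10.71, 10.78 and 10.59 in control siRNA cells (SE 0.13, limma adjusted p = 0.32). All of its SetD8 siRNA arrays were below all of its control siRNA arrays. Cox4nb, in fact a subunit of a protein insertion complex of the endoplasmic reticulum, had -0.33 (SE 0.14), Atp5s -0.14 (SE 0.21) and Atp5sl 0.10 (SE 0.13).

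Ndufa4l2, a paralogue of Ndufa4 that is induced in low oxygen, varied more between arrays than any other member. It had 9.56, 9.91 and 11.85 in SetD8 siRNA cells and 10.56, 9.73 and 12.53 in control siRNA cells (difference -0.50, SE 0.87). In each group the array numbered 3, on slide 3, was the highest. Ndufa4 itself, once assigned to complex I and now to complex IV, had -0.03 (95% interval -0.41 to 0.34).

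Genes that build or feed the chain, from lists drawn up with earlier results of these data known, were also not called in either setting. In normexp and quantile normalized values, limma called 0 of 36 measured assembly factors, 0 of 17 regulators of mitochondrial biogenesis, 0 of 21 citric acid cycle genes, 0 of 13 carriers and ATP synthase inhibitor, and 0 of 24 genes of protein import and folding, beside 0.471% of all features. The median difference was -0.00 for assembly factors, -0.17 for biogenesis regulators, -0.03 for citric acid cycle genes, -0.04 for carriers and inhibitor and -0.26 for import and folding, beside 0.03 for all features. Differences were negative for 12 of 17 biogenesis regulators and 20 of 24 import and folding genes.

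The largest positive difference among the named genes of these lists was that of Sco2. Sco2, a copper chaperone of complex IV and a known p53 target, had 10.784, 11.257 and 10.703 in SetD8 siRNA cells and 9.932, 9.787 and 9.990 in control siRNA cells (difference 1.01, SE 0.18, limma adjusted p = 0.0826). Sdhaf4, an assembly factor of complex II, had 0.67 (SE 0.11, limma adjusted p = 0.0791). For both genes the SetD8 siRNA arrays all lay above the control siRNA arrays. After percentile scaling this held for Sco2 (0.91, SE 0.36), whereas the groups overlapped for Sdhaf4 (0.55, SE 0.40).

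The regulators pointed in different directions. Nrf1, the transcription factor of the motif above, had 9.58, 9.65 and 9.80 in SetD8 siRNA cells and 10.07, 10.14 and 9.97 in control siRNA cells (difference -0.39, SE 0.12, limma adjusted p = 0.271), with all SetD8 siRNA arrays lower. After percentile scaling Nrf1 had -0.60 (SE 0.38), and its groups overlapped. Gabpb1, a subunit of GABP, had 0.57 (SE 0.16) after normexp and quantile normalization. Idh2, the mitochondrial NADP-linked isocitrate dehydrogenase, had 0.51 (SE 0.13), and Pdk1, a kinase that holds back pyruvate dehydrogenase, had -0.95 (SE 0.28).

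Slc25a4, the ADP/ATP carrier best known from heart and muscle, had 12.92, 13.06 and 12.72 in SetD8 siRNA cells and 12.06, 12.06 and 11.62 in control siRNA cells (difference 0.99, SE 0.17, limma adjusted p = 0.0826). Slc25a37, the mitochondrial iron importer mitoferrin of red cell precursors, had -0.54 (SE 0.23). In protein import, Gfer, a sulfhydryl oxidase, had 0.77 (SE 0.11, limma adjusted p = 0.0581). The mitochondrial chaperone Hspa9 had 11.96, 11.80 and 11.64 in SetD8 siRNA cells and 12.57, 12.63 and 12.56 in control siRNA cells (difference -0.79, SE 0.13, limma adjusted p = 0.0702). Apart from Slc25a37, the genes of this paragraph did not overlap between the groups.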

How the data were processed

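Per the file headers, Feature Extraction 10.7.3.1 produced the deposited scanner files, which give linear intensity per spot for 1-colour Agilent arrays and place probes on mm9. The authors' deposited series matrix also holds intensity, and 100% of its values matched the processed signal within 0.006. The submitters' processing notes name limma without a version, and details of the authors' normalization between arrays are not given in the sources used here. Control and outlier spots were left out and spots of a probe averaged. From the deposited intensity, log2 values were computed in 2 settings: processed signal minus each array's 75th percentile, and normexp (offset 50) on mean signal and local background followed by quantile normalization. Each gene took the values of its brightest usable probe. All 22094 features were tested with limma 3.58.1 (lmFit, eBayes) in R 4.3.3, two-sided, with Benjamini-Hochberg adjustment, after a check on simulated data. Python 3.11.15, pandas 2.3.3 and matplotlib 3.10.9 served for promoters and figures.

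Of the member probes, 124 were matched to the reference gene table by accession and 14 by symbol, and 61 genes had 1 probe. The representing probes of Atp5l, Cox5b and Atp5j2 lie in mm9 on another chromosome than the gene. No spot was saturated. No genome or protein table was used here. Members, lists, the second setting and the named-gene rule were chosen with earlier results of these data known. The rule names listed isoforms, the 2 highest and 2 lowest subunits of each complex, called genes, prefix matches that are not subunits, and the 2 list genes with the smallest p. Other members are named because of their values, and 1 member gene, counted in all totals, is not reported here by name. Alternatives covered normalization, dim-probe filters, gene summaries, moderation, array weights, slide and replicate blocks and left-out arrays.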

Additional observations from a re-analysis of the deposited data

How the results depend on the processing

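The 75th percentile scaling called 0 of all 22094 features and normexp with quantile normalization called 104. Members called after percentile scaling numbered 1 with a filter for signal above background on all arrays (0.823% of all features) and 21, of which 19 were lower, with array weights (35.2% of all features). After normexp and quantile normalization they numbered 2 with that filter (2.83%), 2 with trend and robust moderation (3.37%), 9 with array weights (21.3%) and 1 (Cox6b2) over reference genes only (1.66%), an alternative added after seeing the data. Cox6b2 and Cox7a1 were the 2 in both cases. Leaving out any 1 array gave 0 in both settings. After normexp and quantile normalization the weights were 0.68 to 0.965 for SetD8 siRNA arrays, and 59.4, 0.205 and 0.17 for control 1, 2 and 3. After percentile scaling control 1, 2 and 3 had 36300000, 0.00551 and 0.00592. The weighted control mean thus rested mostly on control 1, and in both settings the estimation of the weights stopped before convergence. After percentile scaling, the filter on all arrays and the slide block took 1 shared spread for all genes.

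The member median after percentile scaling (-0.18) became -0.69 with median scaling and 0.57 within slide 3, and -0.50 to 0.11 with 1 array left out. After normexp and quantile normalization, use of the 75th percentile in place of quantiles moved the medians to -0.20 for all members and to -0.20, -0.23, -0.26, -0.15 and -0.21 for complexes I to V. Within slide 3 they were 0.0744 for all members and 0.09, 0.0589, 0.0458 and 0.16 for complexes I to IV, and complex I had -0.00954 within slide 1. Complex III had -0.0037 with array weights, and complex V -0.0244 with the mean over probes. With 1 array left out the complexes stayed between -0.07 and 0.11.

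Setd8 after percentile scaling passed the limma threshold with normexp before scaling (-2.23, adjusted p = 0.0406), the filter on all arrays (-2.23, adjusted p = 1.4e-05), array weights (-2.41) and the slide block (-1.95, adjusted p = 0.0241), and had -1.38 within slide 3. After normexp and quantile normalization it missed the threshold with quantile-normalized processed signal (-2.10, adjusted p = 0.0984), the slide block (-2.05, adjusted p = 0.0866) and with any 1 of 4 arrays left out (-2.19 to -2.01 over all 6, adjusted p up to 0.149). Same-numbered arrays did not deviate together (correlations 0.15, -0.28 and -0.27), and the replicate block gave -2.08 with an adjusted p of 0.272 for Setd8 and 0 members called in both settings.

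Over 21 alternatives, Cox6b2 ran from 1.03 to 1.51 (limma adjusted p 0.00288 to 0.918) and passed the threshold in 4, Cox7a1 from 0.54 to 0.93 (0.00176 to 0.966) and passed in 3, and Cycs from -0.61 to -0.29 (0.0118 to 0.966) and passed in 1, array weights. Of the named list genes, Sdhaf4, Slc25a4, Gfer and Hspa9 passed in 4 alternatives each, Sco2 in 3 and Idh2 in 2. Gabpb1, Nrf1, Pdk1 and Slc25a37 passed in 1 each. The cause of these differences between alternatives was not tested.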

Other observations

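Cox6b2 and Cox7a1 were set beside their neighbours on chromosome 7 in the reference gene order. The gene next to Cox6b2 on one side is Kmt5c, which encodes another methyltransferase of histone H4 lysine 20, and it had a difference of -0.07 (SE 0.12, limma adjusted p = 0.891) after normexp and quantile normalization. On the other side Fam71e2 had -0.33 (SE 0.24). Capns1, next to Cox7a1, had 0.54 (SE 0.14, limma adjusted p = 0.175), and Zfp146, on the other side, had -0.31 (SE 0.14).

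Several genes of the wider mitochondrial lists shared the array pattern of Ndufa4l2 within the SetD8 siRNA group. Pdk1 had 9.16, 9.26 and 10.11 in SetD8 siRNA cells and 10.40, 10.24 and 10.74 in control siRNA cells. Slc25a37 had 12.64, 12.74 and 13.39 in SetD8 siRNA cells and 13.41, 13.33 and 13.66 in control siRNA cells. The erythroid membrane gene Slc4a1 had 11.03, 10.91 and 12.24 in SetD8 siRNA cells and 12.47, 12.34 and 12.99 in control siRNA cells. In each of these genes the array numbered 3 was the highest of its group, and both such arrays were on slide 3. These genes were picked after their values were seen.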
